A study of Rattus norvegicus with 18 samples.

Results

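Amino acid transporter genes were read on microarrays of INS-1 cells that were or were not induced to make a misfolding insulin. The genes were all those whose symbol in the array annotation starts with Slc1a, Slc6a, Slc7a, Slc36a, Slc38a or Slc43a followed by a number, without Slc7a11, which left 50 genes of the 14217 that have a probe set assigned to 1 gene. Each gene was read by its brightest single-gene probe set over the 18 arrays, and 38 of the 50 have no other. The mean signal of 23 genes was at or above the median of all probe sets, and these were tested, while 27 lay under it. The Slc1 family has 6 members here (2 tested), Slc6 has 16 (5 tested), Slc7 has 14 (7 tested), Slc36 has 3 (0 tested), Slc38 has 9 (8 tested) and Slc43 has 2 (1 tested). The symbol rule also takes in genes that carry other cargo, among them the creatine carrier Slc6a8 and the monoamine carriers Slc6a2, Slc6a3 and Slc6a4. One more, Slc7a6os, is named for lying on the strand opposite Slc7a6 and is not a transporter. Its mean log2 ratio was 0.10 at 24 h and 0.09 at both later times.

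INS-1 is a rat insulinoma line, and clone #4S2 is 1 clone of it in which doxycycline switches on proinsulin with the C96Y mutation, which cannot form a disulfide bond, fused to a green fluorescent protein. The clone had been enriched by sorting for its brightest cells after induction. Doxycycline cultures received 2 µg/ml of the drug for 1 of 3 times (24 h, 48 h, 5 days), and control cultures of the same clone were kept without it for as long. That makes 6 groups of 3 arrays. A replicate number pairs a doxycycline with a control culture of the same time, and each such pair is called an experiment below. Whether equal numbers at different times mark the same experiment is not given by the labels. All groups carry the inducible system and the transgene, and there were no arrays of cells without the transgene given doxycycline. On these arrays the drug and the mutant insulin therefore cannot be told apart. The study states, without showing the results, that the same dose left Grp78 and Chop unchanged in a parental INS-1 line, as mRNA and as protein. It does not mention transporter genes there.

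Amino acid carriers fall into a few working types. Members of Slc1, Slc6 and Slc38 mostly use the sodium gradient to pull amino acids into the cell, several Slc7 members exchange one amino acid for another and need a heavy chain such as Slc3a2 to reach the cell surface, and the cationic carriers of Slc7 bring in arginine and lysine without one. Slc43 members let large neutral amino acids pass along their gradient, and Slc36 members are proton-coupled. Several carriers are known targets of ATF4, the transcription factor whose translation rises when PERK, a sensor of unfolded protein in the endoplasmic reticulum (ER), slows translation.

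Signals below are the deposited linear intensities after quantile normalization, ratios are doxycycline over control of the same experiment, and "rose" or "fell" means an adjusted p under 0.05 from limma, fitted separately to each time (6 arrays) with the experiment as a block, adjusted over all 15521 tested probe sets. A list of 12 genes for ER folding was used to check the labels. All 12 were higher with doxycycline in each pair at 24 h and 48 h, with medians of 0.99 to 1.33 on the log2 scale. At 5 days they were higher in 11 of 12 in experiment 2 and in 12 of 12 in experiment 3, but in 0 of 12 in experiment 1, where the median was -1.49, so both libraries of that pair are called by their labels below and go against them in these genes. The library labelled doxycycline, 5 days, experiment 2 also stood apart. Its GAPDH 3'/5' signal ratio was 2.91 against 1.05 to 1.19 in the other 17 libraries, and its median correlation with the others was 0.87 against 0.956 to 0.977. Of 9 beta-cell markers on the array all 9 were above the median, with summed signals of 91720 to 110300 over the doxycycline arrays and 90640 to 122900 over the control arrays, while 0 of 8 acinar and 0 of 3 leukocyte markers were. Of 6 fibroblast markers 1 was, with sums of 196 to 475 in doxycycline arrays and 217 to 334 in control arrays. In a bulk culture, fewer cells of a kind and less RNA per cell cannot be told apart.

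At 48 h doxycycline was followed by more mRNA of 3 amino acid transporters. Slc7a1, the cationic carrier CAT1, rose 2.42-fold ± 0.117, Slc1a4, the sodium-coupled carrier ASCT1 for alanine, serine, cysteine and threonine, rose 2.76-fold ± 0.513, and Slc38a1, the glutamine carrier SNAT1, rose 1.59-fold ± 0.161 (mean ratio, SD, n = 3 experiments). These are 3 of 23 tested members, while 2.33% of all tested probe sets rose at 48 h. None of the 23 fell, where 1.19% of all tested probe sets did, and 20 did not pass. At an unadjusted p under 0.05 there were 9 higher and 2 lower, beside 12.2% and 12.5% of all tested probe sets. The median log2 ratio of the 23 was 0.21, beside -0.01 over all tested probe sets. At the same time 1 of 9 beta-cell markers fell and 0 rose. Of the 9, 7 were lower and 1 higher in all 3 experiments, beside 25.4% and 22.8% of all tested probe sets. All doxycycline arrays were below all controls for 5 and above for 0, beside 10.8% and 11.3%. Summed signals of the 9 were 96840 to 108500 with doxycycline and 110200 to 119200 in the controls. Of 4 markers of other islet cells the 1 above the median, Gcg (glucagon), fell. Summed signals of the 4 were 342 to 379 with doxycycline and 1550 to 2158 in the controls. Most of that sum is Gcg, with 261, 271 and 292 with doxycycline against 1909, 1470 and 2057 in the controls. Sst, Ppy and Ghrl were under the median and not tested. The part of these markers in the transporter values was not tested.

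Slc7a1 gave signals of 3940, 3808 and 4119 in the doxycycline cultures of experiments 1, 2 and 3, against 1623, 1662 and 1631 in the controls. The arrays of each group lay close together and the groups did not overlap. The log2 ratio was 1.27 (SE 0.07, limma adjusted p = 0.00856). Slc1a4 gave 591, 713 and 698 with doxycycline, against 272, 239 and 223 in the controls. Again the groups were apart, with the smallest ratio in experiment 1. The log2 ratio was 1.45 (SE 0.13, limma adjusted p = 0.0173). Slc38a1 gave 647, 754 and 780 with doxycycline, against 384, 538 and 465 in the controls. All doxycycline arrays were above all controls, by less than for the other two genes. The log2 ratio was 0.66 (SE 0.09, limma adjusted p = 0.0347). These calls rest on all 3 experiments. Without experiment 1 the adjusted p was 0.129 for Slc7a1, 0.116 for Slc1a4 and 0.155 for Slc38a1, and without experiment 3 it was 0.0563, 0.0698 and 0.143, so that 0 members passed. Without experiment 2 Slc7a1 passed (0.0472) and Slc1a4 (0.0789) and Slc38a1 (0.0990) did not. In those fits of 2 pairs the log2 ratios stayed between 1.24 and 1.31 for Slc7a1, 1.35 and 1.61 for Slc1a4, and 0.62 and 0.75 for Slc38a1. Few probe sets of any kind passed in the fits of 2 pairs. Of all tested probe sets 0, 0.187% and 0.11% rose without experiments 1, 2 and 3, against 2.33% with all 3.

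**Figure D1:**
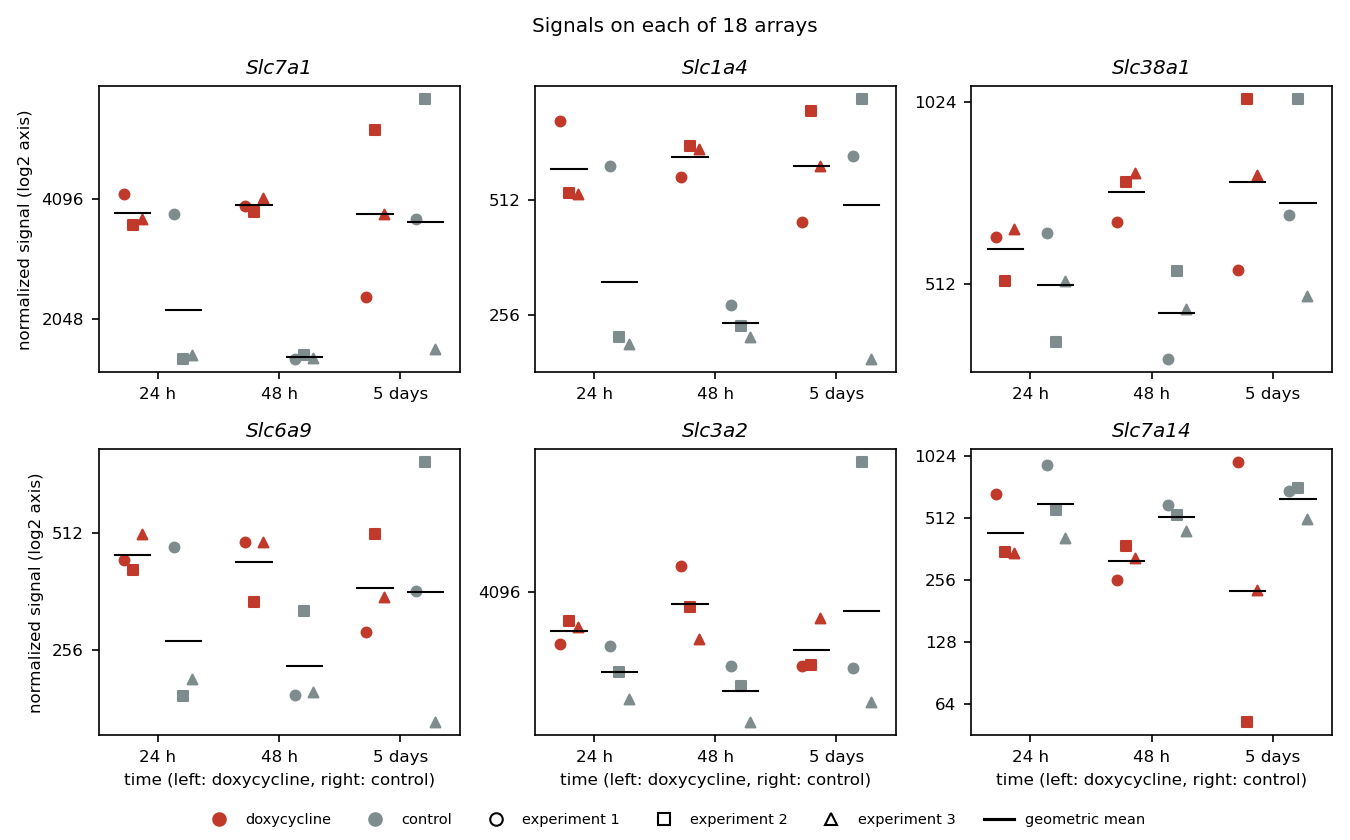
Normalized signal (log2 axis, a separate range in each panel) of 5 transporter genes and the heavy chain Slc3a2 on the 18 arrays, doxycycline (red) left of control (grey) at each time, with circles, squares and triangles for experiments 1, 2 and 3 and bars for geometric means. At 48 h the Slc7a1 arrays lie at 3808 to 4119 with doxycycline and at 1623 to 1662 without, and at 24 h the control of experiment 1 (3750) and at 5 days the control of experiment 2 (7316) lie with or above the doxycycline arrays.

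The promoters of the 3 genes that rose are shown because, of the members, they are the ones whose window holds the letters TGATGNAAN. That is a core of the composite element at which ATF4 pairs with a C/EBP protein, and N stands for any base. The spelling was chosen after the values had been seen, other spellings were looked at as well, and both strands were read. Sequences are those of RefSeq on the rat assembly GRCr8, 250 bases before to 50 bases after the gene start, written 5' to 3' along the gene, with the match in capitals. The Slc1a4 window is chr14:98761513-98761812 (minus strand), the Slc38a1 window chr7:129681352-129681651 (minus strand) and the Slc7a1 window chr12:11664238-11664537 (plus strand).
Slc1a4: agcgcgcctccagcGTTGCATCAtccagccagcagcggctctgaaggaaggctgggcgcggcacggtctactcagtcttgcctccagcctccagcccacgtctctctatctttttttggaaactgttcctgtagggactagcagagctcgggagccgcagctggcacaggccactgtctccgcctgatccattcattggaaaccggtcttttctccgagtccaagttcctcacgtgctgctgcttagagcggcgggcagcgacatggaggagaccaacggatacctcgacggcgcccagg
Slc38a1: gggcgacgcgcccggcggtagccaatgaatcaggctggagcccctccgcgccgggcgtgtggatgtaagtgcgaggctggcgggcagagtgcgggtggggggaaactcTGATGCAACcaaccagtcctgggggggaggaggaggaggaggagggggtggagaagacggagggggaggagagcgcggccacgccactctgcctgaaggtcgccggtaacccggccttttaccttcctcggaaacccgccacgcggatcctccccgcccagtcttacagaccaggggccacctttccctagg
Slc7a1: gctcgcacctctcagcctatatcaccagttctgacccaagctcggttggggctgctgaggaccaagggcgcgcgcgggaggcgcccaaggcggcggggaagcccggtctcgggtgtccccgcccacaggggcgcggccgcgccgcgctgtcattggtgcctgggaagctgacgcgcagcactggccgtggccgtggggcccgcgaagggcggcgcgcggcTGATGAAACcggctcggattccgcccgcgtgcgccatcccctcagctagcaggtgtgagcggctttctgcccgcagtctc
The match starts 236 bases before the gene start in Slc1a4, where GTTGCATCA is the reading of the opposite strand, 142 before in Slc38a1 (TGATGCAAC) and 30 before in Slc7a1 (TGATGAAAC).

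Promoters were at hand for 38 of the 50 members, some with several starts, 42 in all. Of these 42 windows 3 (7.14%) held a match, of the 18 of tested members 3 (16.7%), and of the 24 of members under the median 0. The share was 3.97% of all 33469 promoters, 12.5% of 16 promoters of a list of ATF4 targets (Chac1 and Trib3) and 9.09% of 11 promoters of the ER folding genes (Herpud1). The longer spelling TGATGNAAT, whose matches are among those of the first, was in 1.09% of all promoters and in 0 of the 42. A match is a run of letters, and whether a protein binds there was not measured. There was no window for Slc1a1, Slc1a5, Slc38a10, Slc38a3, Slc6a13, Slc6a15, Slc6a2, Slc6a4, Slc7a13, Slc7a2, Slc7a3 and Slc7a4.

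The glycine carrier Slc6a9 (GlyT1) gave 487, 341 and 486 at 48 h with doxycycline, against 195, 322 and 199 in the controls. The doxycycline arrays were all higher, but in experiment 2 by little. The log2 ratios were 1.32, 0.08 and 1.28 (mean 0.89, SE 0.27), and the gene did not pass (limma adjusted p = 0.133). Its second probe set did, with signals of 241, 268 and 232 with doxycycline, against 96.7, 63.2 and 108 in the controls. On that probe set the groups were well apart in each experiment, also in experiment 2. Its log2 ratio was 1.5 (SE 0.20, limma adjusted p = 0.0350). The remaining probe set, under the median and not tested, had log2 ratios of 1.97, 1.46 and 2.29. Without experiment 2 the first probe set passed too (log2 ratio 1.30, adjusted p = 0.0472). The count of carriers that rose at 48 h therefore turns on which Slc6a9 probe set is taken.

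The carriers Slc38a2, Slc38a10 and Slc7a5 were higher in every pair at 48 h without passing. Slc38a2, the adaptively regulated carrier SNAT2, had signals of 2806, 2366 and 2484 with doxycycline, against 2029, 1709 and 1985 in the controls. Slc38a10, a less studied relative, had 1611, 1664 and 1955 with doxycycline, against 1266, 1350 and 1576 in the controls. For both genes every doxycycline array was above every control. The log2 ratios were 0.42 and 0.32 (SE 0.08 and 0.07), with limma adjusted p of 0.0594 and 0.0774. Slc7a5, the light chain LAT1 of the leucine exchanger, had 1219, 1117 and 600.4 with doxycycline, against 886, 731 and 516 in the controls. Its groups overlapped, because both arrays of experiment 3 were low, but it was higher in all 3 pairs (log2 ratio 0.43, SE 0.10, limma adjusted p = 0.0882). When the 24 h and 48 h arrays were fitted together, these 3 genes passed as well (adjusted p = 0.0193, 0.0302 and 0.0284), in a fit that called 5.64% of all tested probe sets higher at 48 h. Counting arrays only, 7 of the 23 members had all doxycycline arrays above all controls at 48 h, namely Slc7a1, Slc1a4, Slc38a1, Slc6a9, Slc38a2, Slc38a10 and the lysosomal arginine carrier Slc38a9, against 11.3% of all tested probe sets, and 3 had them all below, against 10.8%.

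The lower side at 48 h held 1 carrier with a ratio over 0.5 on the log2 scale. Slc7a14, a relative of the cationic carriers, had signals of 256, 374 and 328 with doxycycline, against 590.4, 527 and 442 in the controls. All doxycycline arrays lay below all controls, and experiment 1 had the widest gap. The log2 ratio was -0.71 (SE 0.17), and the gene did not pass in the 48 h fit (limma adjusted p = 0.0931) but did with the 24 h arrays in the same fit (0.0354), which called 4.73% of all tested probe sets lower. For the taurine carrier Slc6a6, the probe set taken here had 2699, 2734 and 2427 with doxycycline, against 3091, 2924 and 3145 in the controls. The arrays did not overlap, yet the log2 ratio was only -0.22 (SE 0.09, limma adjusted p = 0.202). Its other probe set gave 488, 730.1 and 561 with doxycycline, against 1100, 1128 and 907 in the controls. There the gap was wide in every experiment, and this probe set fell, with a log2 ratio of -0.83 (SE 0.13, limma adjusted p = 0.0445). The other gene in this group without overlap was Slc38a4 (log2 ratio -0.21).

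**Figure D2:**
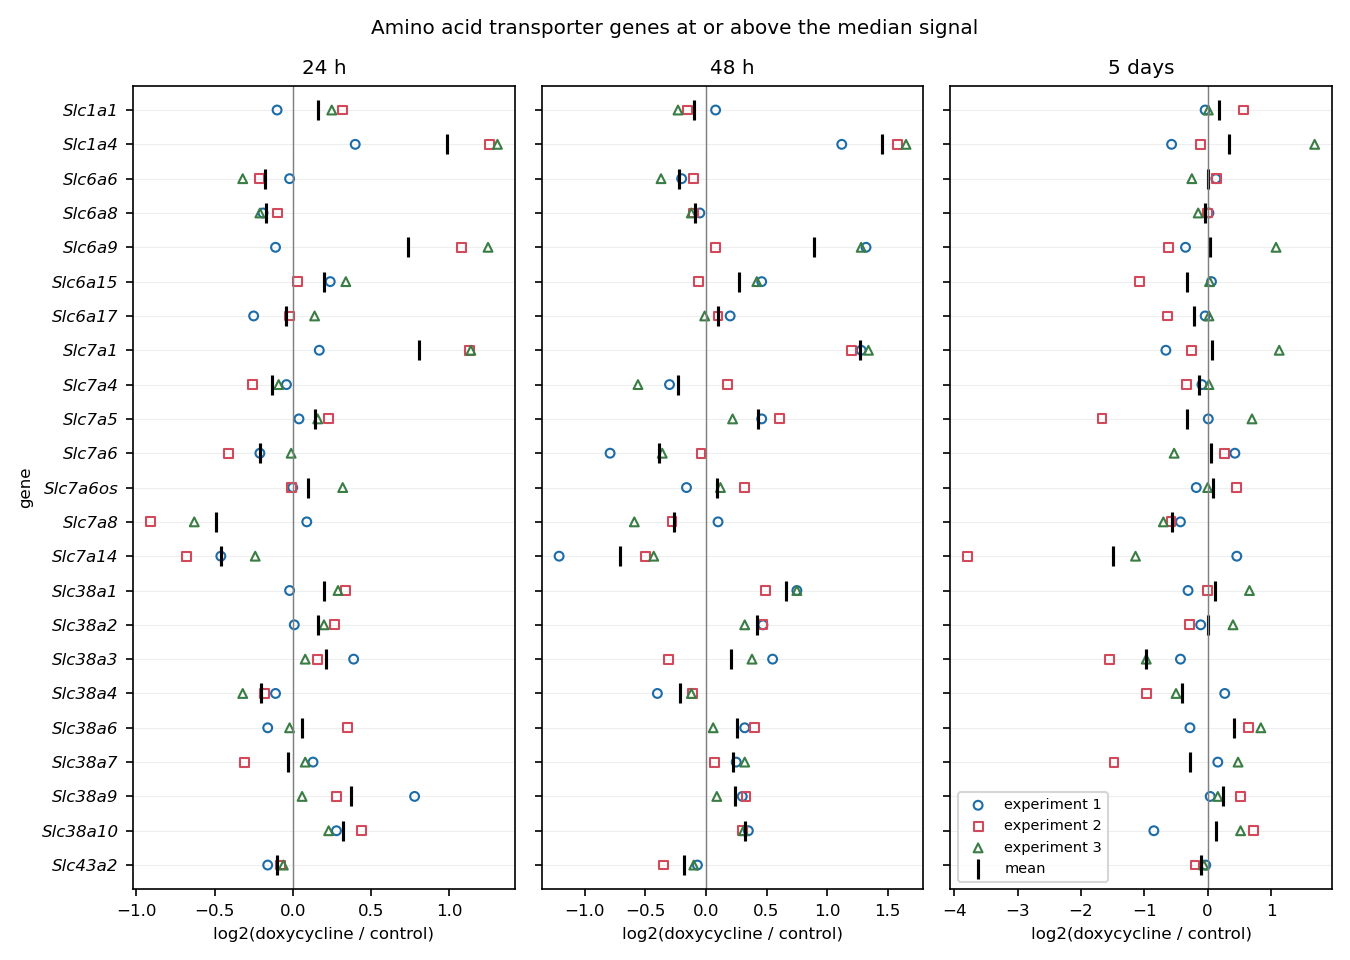
Log2 ratio of doxycycline over control in each experiment (circle 1, square 2, triangle 3) and their mean (bar) for the 23 tested transporter genes, with a panel and a separate horizontal range for each time. At 48 h Slc1a4 (1.45) and Slc7a1 (1.27) have the highest means and Slc7a14 (-0.71) the lowest, and 11 of 23 means lie within 0.25 of 0.

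Of the 23 tested members 11 had a mean log2 ratio within 0.25 of 0 at 48 h and 18 within 0.5. The shares of all tested probe sets within these limits were not computed. The median of the 23 was 0.21, beside -0.01 over all tested probe sets. The glutamate carrier Slc1a1 was at -0.10, the creatine carrier Slc6a8 at -0.09, the vesicular neutral carrier Slc6a17 at 0.10 and the neutral carrier Slc6a15 at 0.27. In Slc7, the exchangers Slc7a8 (LAT2) and Slc7a6 were at -0.26 and -0.39, and Slc7a4 at -0.23. In Slc38, values ran from -0.21 to 0.66, with Slc38a3 at 0.21, Slc38a6 at 0.26, Slc38a7 at 0.22 and Slc38a9 at 0.24. The 1 tested Slc43 member, Slc43a2 (LAT4), had signals of 714, 975 and 1080.4 with doxycycline, against 751, 1245 and 1159.8 in the controls. Each pair was lower with doxycycline, by less than the spread between experiments (log2 ratio -0.18, limma adjusted p = 0.298). Across the 23, 10 were higher and 6 lower in all 3 experiments, beside 22.8% and 25.4% of all tested probe sets.

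Several probe sets of 1 gene can be set beside each other for 8 tested members. The 3 tested probe sets of Slc7a1 had 48 h log2 ratios of 1.27, 0.78 and 0.41, and the first and second rose (limma adjusted p = 0.00856 and 0.0347). Those of Slc38a1 were 0.66 and 0.32, and of these the first rose. The remaining Slc38a1 probe set, under the median and not tested, had log2 ratios of 0.83, -0.75 and -0.39. For Slc1a1, Slc43a2, Slc6a17 and Slc6a8 no probe set passed, with values between -0.29 and 0.14. Direction was shared by the tested probe sets of each gene at 48 h except in Slc6a17 (-0.06 to 0.14), while the size differed most between those of Slc7a1 among these genes.

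**Figure D3:**
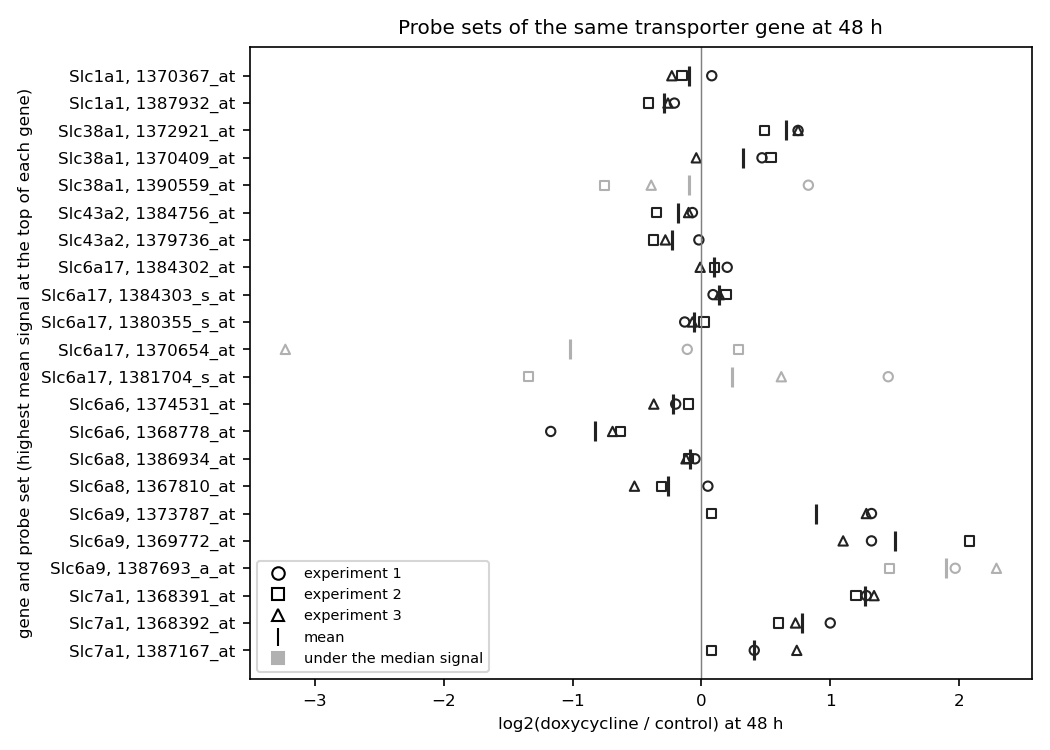
Log2 ratio of doxycycline over control at 48 h for each probe set of the 8 tested transporter genes that have several, by experiment (circle 1, square 2, triangle 3) with the mean as a bar, probe sets under the median signal in grey. All probe sets of Slc7a1 and Slc6a9 have positive means, and the second probe set of Slc6a6 (-0.83) lies farther from 0 than the first (-0.22).

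At 24 h Slc1a4, Slc7a1 and Slc6a9 had the highest mean ratios of the tested members, with the control of experiment 1 unlike the other two. No member rose or fell, beside 0.193% of all tested probe sets higher and 0.0129% lower, and at an unadjusted p under 0.05 there were 5 higher and 2 lower, beside 7.75% and 6.94% of all. Slc1a4 gave 829, 535 and 532 with doxycycline, against 629, 224 and 214 in the controls. Slc7a1 gave 4213, 3532 and 3640.4 with doxycycline, against 3750.0, 1617 and 1656 in the controls. Slc6a9 gave 437, 410.5 and 510.3 with doxycycline, against 472, 194 and 215 in the controls. In all 3 genes the controls of experiments 2 and 3 were low and that of experiment 1 was high. For Slc1a4 and Slc7a1 the doxycycline array of experiment 1 was also above the other doxycycline arrays. The log2 ratios were 0.40, 1.26 and 1.31 for Slc1a4, 0.17, 1.13 and 1.14 for Slc7a1, and -0.11, 1.08 and 1.25 for Slc6a9. Their means were 0.99, 0.81 and 0.74 (SE 0.19, 0.21 and 0.27, limma adjusted p = 0.139, 0.201 and 0.308), and without experiment 1 they were 1.28, 1.13 and 1.16 (adjusted p = 0.143 for each). These 3 of the 23 tested members were 2-fold or more higher in at least 2 experiments at 24 h, and again at 48 h, where 0.290% and 0.509% of all tested probe sets were. None of the 23 was as much lower at 24 h (0.0709%) or 48 h (0.187%). Slc38a1 had 611, 518 and 631 at 24 h with doxycycline, against 621, 409.6 and 518 in the controls, which overlapped (log2 ratio 0.20). Slc7a14 had 671, 349 and 345 with doxycycline, against 926, 559 and 408 in the controls, lower in each pair (log2 ratio -0.46, SE 0.10, limma adjusted p = 0.171). Slc43a2 had 806, 827 and 1148 with doxycycline, against 903, 873 and 1197 in the controls (log2 ratio -0.10). Of the 23 tested members, all doxycycline arrays were above all controls at 24 h for 1, Slc38a10 (5.03% of all tested probe sets), and all below for 1, Slc6a8 (3.72%).

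Whether the 48 h ratios were larger than those at 24 h was tested on the 12 arrays of both times. The difference in log2 ratio was 0.46 for each of Slc38a1 (SE 0.13), Slc1a4 (SE 0.27) and Slc7a1 (SE 0.26), and limma gave adjusted p of 0.672, 0.785 and 0.775. No probe set of all 15521 passed, with 520 larger and 516 smaller at an unadjusted p under 0.05 and a smallest adjusted p of 0.590. Of the members 2 were larger and 0 smaller at that unadjusted level. A carrier that passed at 48 h and not at 24 h is thus not shown to differ between these times.

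The control cultures varied more in some of these genes than in most tested probe sets. Over the 9 control arrays the SD of the log2 signal was 0.87 for Slc1a4, 0.80 for Slc7a1, 0.75 for Slc6a9, 0.69 for Slc7a5 and 0.68 for Slc6a15, which put them at percentiles 99.7, 99.5, 99.4, 99.1 and 99.1 of all tested probe sets, and the median was 0.34 for the 23 members and 0.22 for all. Over the 6 controls of 24 h and 48 h alone, Slc1a4 (0.60) and Slc7a1 (0.49) were still at percentiles 99.1 and 97.9. The control of 5 days, experiment 2, was the highest of the 9 for 11 of the 23 members and for 20.3% of all tested probe sets, and that of 24 h, experiment 1, for 4 members and 13.6% of all. Slc7a5 had 2100.4 in the first of these and 416 to 888 in the other 8 controls. The 9 arrays include the library labelled control of 5 days, experiment 1, whose pair goes against its labels in the ER genes. The spread over the 9 can therefore not be said to be without doxycycline, while the 6 controls of 24 h and 48 h leave that pair out. What set the controls of 5 days, experiment 2, and of 24 h, experiment 1, apart was not tested.

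At 5 days the 3 experiments pointed in different directions. No member rose or fell, and no probe set did (0 of 15521 in each direction). At an unadjusted p under 0.05 there were 0 higher and 2 lower of the 23, beside 1.11% and 1.37% of all tested probe sets. Slc7a1 had 2319, 6103 and 3749 in the libraries labelled doxycycline, against 3653, 7316 and 1716 in those labelled control. Slc1a4 had 449.7, 879 and 631 in the libraries labelled doxycycline, against 669, 946 and 195 in those labelled control. Both were lower in experiments 1 and 2 and higher in 3. Slc38a1 had 538, 1034 and 774 in the libraries labelled doxycycline, against 665, 1033 and 488 in those labelled control. Slc6a9 had 284, 511 and 350.0 in the libraries labelled doxycycline, against 363, 783 and 166 in those labelled control. These followed the same order, with experiment 2 level for Slc38a1. The second probe set of Slc38a1 did not, with log2 ratios of -0.61, -0.67 and -0.32 in experiments 1, 2 and 3. In experiment 3, where all 12 ER genes were higher, the log2 ratios were 1.13 for Slc7a1, 1.69 for Slc1a4, 0.66 for Slc38a1 and 1.08 for Slc6a9. In experiment 2, 11 of 12 ER genes were higher, and the library labelled doxycycline had the GAPDH ratio of 2.91. The log2 ratios there were -0.26, -0.11, 0.00 and -0.62. In experiment 1, where the ER genes go against the labels, they were -0.66, -0.57, -0.31 and -0.35. Without experiment 1 the means were 0.43, 0.79, 0.33 and 0.23, with adjusted p of 0.786 to 0.931.

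Among the other carriers at 5 days, Slc7a14 had 956, 51.8 and 229 in the libraries labelled doxycycline, against 694, 718 and 504 in those labelled control. The 51.8 came from the library with the GAPDH ratio of 2.91, and without experiment 2 the mean log2 ratio was -0.34, against -1.49 with it. Of the 23 tested members, Slc7a14 was the 1 that was 2-fold lower in at least 2 experiments at 5 days (0.438% of all tested probe sets), and 0 of the 23 tested were 2-fold higher in as many (0.296%). Slc43a2 had 888, 533 and 1028 in the libraries labelled doxycycline, against 907, 613 and 1072 in those labelled control (log2 ratio -0.10). The glutamine carrier Slc38a3 (SNAT3) had 161, 138 and 163 in the libraries labelled doxycycline, against 218, 404 and 319 in those labelled control. As labelled, it was the 1 of the 23 tested members whose groups did not overlap at 5 days, lower with doxycycline, where 2.76% of all tested probe sets were lower and 3.73% higher without overlap (log2 ratio -0.98, SE 0.26, limma adjusted p = 0.936). With the labels of the experiment 1 pair turned round, its groups would overlap, and the 138 came from the library with the GAPDH ratio of 2.91.

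The heavy chain that several of these carriers need was tested with a list of 19 other carriers of amino acids and their partners, of which 18 were on the array and 13 were tested. Slc3a2 had 4633, 3806 and 3273 at 48 h with doxycycline, against 2874, 2623 and 2201 in the controls. The groups did not overlap, and Slc3a2 rose, with a log2 ratio of 0.60 (SE 0.07, limma adjusted p = 0.0322). Ctns, which lets cystine out of lysosomes, rose by 0.78 (SE 0.09, limma adjusted p = 0.0309). The other 11 did not pass at 48 h, none of the 13 rose or fell at 24 h or 5 days, and the median log2 ratios were -0.01, -0.03 and -0.03. At 24 h Slc3a2 had 3200 with doxycycline in experiment 1, 3561 in 2 and 3458 in 3, against 3172, 2802 and 2463 in the controls (log2 ratio 0.28). At 5 days it had 2880 in the library labelled doxycycline of experiment 1, 2893 in 2 and 3608 in 3, against 2856, 7583 and 2424 in those labelled control.

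Known ATF4 targets other than the members were read in the same pairs. Of 20 listed, 19 were on the array and 17 were tested. At 48 h 14 rose, from 0.57 to 3.85 on the log2 scale, beside 2.33% of all tested probe sets. These were Atf4, Atf3, Atf5, Ddit3, Trib3, Chac1, Asns, Psat1, Psph, Shmt2, Mthfd2, Aldh18a1, Cebpb and the cystine-glutamate exchanger Slc7a11 (3.79). None rose at 24 h or 5 days, where 0.193% and 0% of all tested probe sets did. At an unadjusted limma p under 0.05, 12 of the 17 were higher and 0 lower at 24 h, beside 7.75% and 6.94% of all. At 5 days 0 were higher and 0 lower, beside 1.11% and 1.37%. The list was drawn up with results of these arrays known, so its direction is not independent evidence. By experiment, its median log2 ratio was 0.07, 0.73 and 1.06 at 24 h. The 48 h medians were 1.21, 1.24 and 1.22, and those of 5 days -0.40, -0.81 and 1.01. For the ER folding genes the 24 h medians were 0.99, 1.10 and 1.10, those of 48 h 1.17, 1.33 and 1.16, and those of 5 days -1.49, 1.58 and 1.05. In 24 h experiment 1 and 5-day experiment 2, the medians of the ATF4 targets and the ratios of Slc7a1 were low or negative while the ER genes were higher with doxycycline. The doxycycline library of 5-day experiment 2 is the one with the GAPDH ratio of 2.91. In that pair the other probe sets of Slc7a1 had log2 ratios of -1.2 and -4.78. The part of that library in these values was not tested. Members share control arrays with both lists, and no relation between them was tested.

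**Figure D4:**
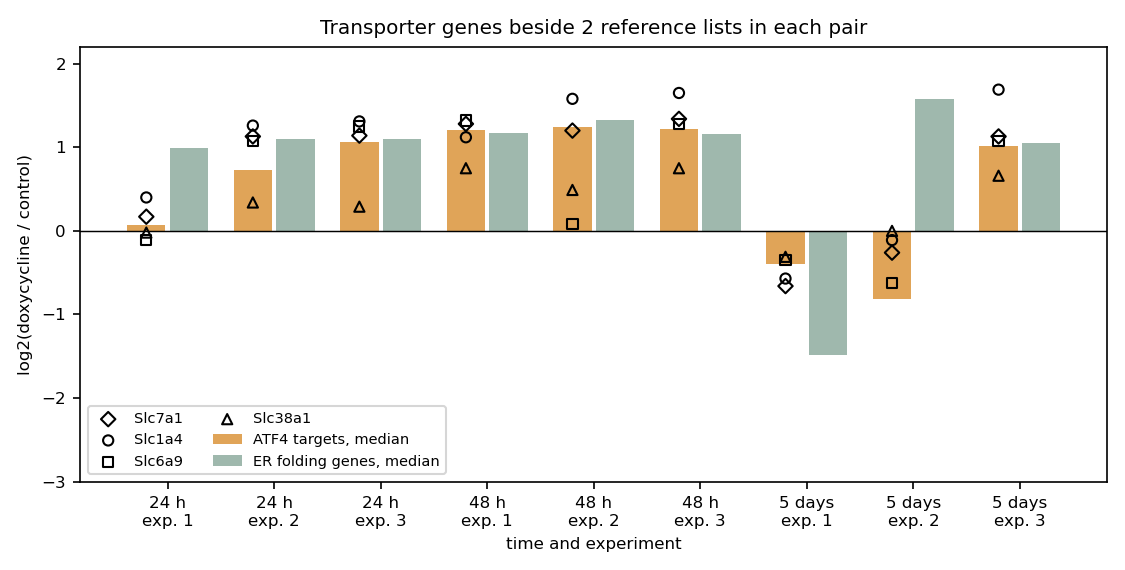
Log2 ratio of doxycycline over control in each of the 9 pairs for Slc7a1 (diamond), Slc1a4 (circle), Slc6a9 (square) and Slc38a1 (triangle), with bars for the median of 17 ATF4 targets (orange) and of 12 ER folding genes (green). In 5-day experiment 2 the ER median is 1.58 and the ATF4 median -0.81, with Slc7a1 at -0.26. The doxycycline library of that pair is the one with the GAPDH ratio of 2.91.

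The 27 members under the median were left out of the fits above. They are Slc1a2, Slc1a3, Slc1a5, Slc1a6, Slc6a2, Slc6a3, Slc6a4, Slc6a5, Slc6a7, Slc6a11, Slc6a13, Slc6a14, Slc6a18, Slc6a20a, Slc6a20b, Slc7a2, Slc7a3, Slc7a7, Slc7a9, Slc7a10, Slc7a12, Slc7a13, Slc36a1, Slc36a2, Slc36a3, Slc38a5 and Slc43a1. Of their 486 values 17.5% were at the floor of 5.99. At 48 h 7 were higher and 2 lower in all 3 experiments, beside 11.2% and 11.0% of all probe sets under the median. All doxycycline arrays were above all controls for 5 of the 27 and below for 1, beside 4.79% and 4.66%. A fit without the filter called none of them at 48 h, nor any probe set. Slc6a20a and Slc6a20b are close copies of each other, and how their probe sets share signal was not tested. Among the 27, Slc1a5, the glutamine carrier ASCT2, was singled out after its values had been seen. It had 108, 93.0 and 75.2 at 48 h with doxycycline, against 5.99 (the floor), 29.3 and 32.7 in the controls. The doxycycline arrays were all higher, at signals where the floor sets part of the ratio.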

How the data were processed

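Each of 18 cultures gave the RNA for 1 Affymetrix array (Rat Genome 230 2.0). The authors deposited linear signal intensities scaled per array, with 2% trimmed means of 500.14 to 500.17. Which program made them, and with what background correction, is not stated in the sources used here. Detection calls were not used. Array medians ran from 91.2 to 138.6, so the deposited intensities were quantile normalized, 57 control probe sets were dropped, values under the 10th percentile (5.99) were set to it, and log2 was taken. The 15521 of 31042 probe sets at or above the median of mean log2 signal were tested. Limma (version 3.58.1, R 4.3.3) was fitted per time point with same-numbered arrays as a block, with Benjamini-Hochberg adjustment over all tested probe sets and a threshold of 0.05.

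Gene names came from the platform annotation (20826 probe sets with 1 gene, 436 with several, 9780 with none), and 20758 matched the RefSeq gene table, among them all 50 transporter genes, whose symbols were current. Same-numbered arrays were taken as pairs because the study gives its ratios per independent experiment. After subtracting group means, they correlated with r of 0.667, 0.484 and 0.662 (24 h), 0.578, 0.256 and 0.359 (48 h) and 0.149, 0.142 and 0.109 (5 days). Such a correlation was not computed for differently numbered arrays. No 2 arrays held identical values in 153 comparisons. The labels number the replicates, and the study calls them independent experiments. No slide or scan date was used, and the number of arrays limits the precision.

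Named with signals in every array are members past the threshold at any time, tested members 2-fold higher or lower in at least 2 experiments, and in each family the tested member with the largest mean change at 48 h. Slc6a6, Slc38a2, Slc38a10, Slc7a5, Slc38a3 and, under the median, Slc1a5 and Slc43a1 were added after their values had been seen. The members, lists and tests were chosen with earlier results of these data known. The procedure was tested on simulated data. Alternatives were no quantile normalization, no filter, a pseudocount of 16 in place of the floor, all 18 arrays or those of 24 h and 48 h in 1 fit, no block, the methods' t-test, the mean of a gene's probe sets, and leaving out each experiment.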

Additional observations from a re-analysis of the deposited data

Results flagged for a closer look

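These values lie outside the main measurement or differ between times. The second probe sets of 3 transporter genes, which do not represent their genes above, passed at 48 h by limma over all tested probe sets, with mean log2 ratios of -0.83 for Slc6a6 (adjusted p = 0.0445), 1.5 for Slc6a9 (0.0350) and 0.78 for Slc7a1 (0.0347). Among members under the median signal, all 3 doxycycline arrays were above all 3 controls at 48 h for Slc1a5, with a mean log2 ratio of 2.34, and Slc43a1, the neutral carrier LAT3, with 1.71. Slc43a1 had signals of 19.1, 26.4 and 14.8 with doxycycline, while all 3 controls were at the floor of 5.99, so this ratio depends on the floor. In a limma fit without the filter, their adjusted p was 0.440 and 0.344. As labelled, Slc38a3 was higher with doxycycline in all 3 experiments at 24 h (log2 ratios 0.39, 0.16 and 0.08) and lower in all 3 at 5 days (-0.43, -1.55 and -0.97), with a mean of -0.98. The first of the 5-day values is from the pair that goes against its labels in the ER genes, and the second from the library with the GAPDH ratio of 2.91. The difference between these times was not tested. With 3 arrays per group, members' signals were not tested for outlying arrays.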

How the results depend on the processing

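The count of transporter genes that rose at 48 h was 3 in the fit of that time alone. It was 0 without the filter on dim probe sets, where 0 of 31042 probe sets passed, and 0 with all 18 arrays in 1 fit, where 0 of 15521 did. It was 6 with the 24 h and 48 h arrays in 1 fit (876 probe sets higher), 6 with the mean of a gene's probe sets (417 of 9077 genes higher) and 6 by the methods' t-test without adjustment (1264 probe sets higher). It was 0 to 2 when 1 experiment was left out, in fits that called 0, 29 and 17 probe sets higher without experiments 1, 2 and 3. The count that fell, 0, became 1 (Slc7a14) with the 24 h and 48 h arrays in 1 fit, 1 (Slc6a6) with the mean of probe sets and 2 (Slc6a6 and Slc7a14) by that t-test, which also gave 1 (Slc38a3) at 5 days. Of all features tested, 4.73%, 3.1% and 6.97% were called lower at 48 h in these settings, in that order. By that t-test 0.683% were lower at 5 days. Without the pair block 2 rose at 48 h (Slc1a4 and Slc7a1), beside 1.34% of all tested probe sets. Slc38a1 had a limma adjusted p of 0.0878 there, and the block changed no count at 24 h or 5 days. The median log2 ratio of the 23 tested members at 24 h was 0.103. It was -0.056 without the filter, where it covers all 50 members, and 0.094 to 0.153 when 1 experiment was left out. At 5 days, where it was -0.001, it was -0.172 with the mean of probe sets and -0.213 to -0.015 when 1 experiment was left out. The signs of 5-day means turned for Slc6a9 without quantile normalization (-0.04), and with the mean of probe sets for Slc38a1 (-0.21), Slc6a9 (-0.17) and Slc7a1 (-0.56). When 1 experiment was left out, 5-day means ran from -0.34 to 0.79 for Slc1a4, -0.15 to 0.33 for Slc38a1, -0.49 to 0.36 for Slc6a9 and -0.46 to 0.43 for Slc7a1, negative in each without experiment 3. The 48 h minus 24 h difference ran from -0.48 to 0.73 for Slc6a9 and -0.16 to 0.02 for Slc43a2. The cause of these changes was not tested. Over all alternatives the adjusted p at 48 h ran from 0.00124 to 0.344 for Slc7a1, 0.00349 to 0.344 for Slc1a4 and 0.00940 to 0.344 for Slc38a1, and no direction turned at 24 h or 48 h among the 6 genes followed. The 27 dim members were tested at 48 h in the fit without the filter alone. With 3 experiments and a doubtful pair at 5 days a missed threshold does not show that a carrier did not change.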
